A study of Homo sapiens with 6 samples.

Results

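The genes described here are 52 components of the Wnt pathway, chosen by symbol from the 58735 genes of a count table: ligands and the proteins that secrete them, receptors, secreted antagonists, the destruction complex with beta-catenin, the TCF/LEF transcription factors, and genes that the pathway switches on. They were followed in HCT-8, a human colon cancer cell line grown as a monolayer, in which RNA was sequenced from 3 untreated control libraries and 3 libraries of cells treated with 5-fluorouracil (5-FU), a fluoropyrimidine that interferes with thymidylate synthesis and is built into RNA. The drug was used at the concentration that inhibits by 10% (IC10), a low dose meant to resemble continuous infusion in the clinic. Neither a molar concentration nor a length of treatment is stated, and both groups come from 1 cell line. The series title asks about CD44 and its control by ELF3. The question here is how the pathway's target genes moved against its ligands, receptors and antagonists.

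In canonical Wnt signalling, lipid-modified Wnt ligands bind Frizzled (FZD) receptors and the co-receptors LRP5 and LRP6, which stops a destruction complex of APC, axin and GSK3 from marking beta-catenin for degradation. Beta-catenin then enters the nucleus, joins TCF/LEF factors and raises the transcription of target genes, several of which encode inhibitors that feed back on the pathway. In the intestinal crypt this pathway maintains stem cells, and in most colorectal cancers it runs without a normal ligand signal, often through loss of APC.

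The proximal promoters of 3 genes are shown: among members with a RefSeq promoter window, the targets APCDD1 and SP5 fell furthest and the antagonist DKK1 rose furthest. Each window runs from 250 bases before to 50 bases after a RefSeq start (GRCh38.p14, plus strand). SP5 lies at chr2:170715087-170715386, APCDD1 at chr18:10454385-10454684 and DKK1 at chr10:52314031-52314330. Capitals mark CTTTGAT, a form of the TCF/LEF motif, searched on both strands (ATCAAAG on the other).
SP5: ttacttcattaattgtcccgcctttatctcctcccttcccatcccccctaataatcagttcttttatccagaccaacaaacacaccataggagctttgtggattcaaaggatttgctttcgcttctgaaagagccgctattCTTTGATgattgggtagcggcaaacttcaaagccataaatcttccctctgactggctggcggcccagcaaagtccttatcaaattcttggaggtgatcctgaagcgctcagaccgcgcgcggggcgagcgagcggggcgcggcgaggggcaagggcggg
APCDD1: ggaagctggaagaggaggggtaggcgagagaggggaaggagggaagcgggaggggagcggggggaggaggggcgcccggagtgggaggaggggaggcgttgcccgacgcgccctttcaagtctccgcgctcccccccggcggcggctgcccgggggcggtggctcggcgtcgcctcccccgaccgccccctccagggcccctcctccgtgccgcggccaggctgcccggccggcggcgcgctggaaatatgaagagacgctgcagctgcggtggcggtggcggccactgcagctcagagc
DKK1: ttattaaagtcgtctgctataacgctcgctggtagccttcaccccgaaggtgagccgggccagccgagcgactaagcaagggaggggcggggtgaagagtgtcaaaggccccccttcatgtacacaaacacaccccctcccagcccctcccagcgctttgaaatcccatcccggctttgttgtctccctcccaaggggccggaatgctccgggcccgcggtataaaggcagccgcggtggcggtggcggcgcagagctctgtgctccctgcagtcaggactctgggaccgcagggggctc

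CTTTGAT stood in the SP5 window alone, at base -109 from the start. Only this exact sequence was searched and marked, so any window may hold other forms of the TCF/LEF motif. RefSeq windows of 300 bases could be matched for 33 of the 52 members, 47 windows in all with alternative starts, and 1 of these 47 held CTTTGAT. Of all 35116 RefSeq promoter windows 2.62% held it. These counts describe letters in a short window; enhancers and more distant sites were not searched.

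Libraries held 18459939 to 23495607 counts. The labels do not state whether replicates were cultured separately, and the p-values therefore measure spread among these libraries that could be technical. Mitochondrially encoded genes took 4.66% to 4.88% of counts in control and 25.5% to 28.5% in 5-FU libraries. With those genes left out of the fit, the numbers of members called higher and lower were again 8 and 25. Colon epithelial markers were abundant (normalized level, CPM, which is the count scaled to library size with TMM factors, summed over 10 genes: 4767 to 6595 in control, 3526 to 4491 after 5-FU), although KRT20 and CDX1 had under 50 counts in every library. Of 6 fibroblast markers DCN and LUM had 0 counts throughout and COL1A2 had 1 count in all, while COL1A1 was higher after 5-FU and set the summed level (15.7 to 20.2 CPM in control, 34.3 to 64.6 CPM after 5-FU). Leukocyte markers summed to 6.51 to 7.16 CPM in control and 5.79 to 7.15 CPM after 5-FU, nearly all from CD14, and 4 endothelial markers to 2.17 to 3.12 and 3.55 to 5.55 CPM. As these are bulk samples, fewer cells of a kind and less RNA per cell cannot be told apart.

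Of the 52 members 49 had enough counts to be tested. The test was edgeR's quasi-likelihood test on counts, fitted over all 19771 genes that passed the low-count filter, and a gene was called at a Benjamini-Hochberg adjusted p under 0.05. After 5-FU 25 members were lower, 8 were higher and 16 did not pass. The share called in either direction, 67.3%, was close to the 70.2% of all tested genes, so the number of changed members is not a result in itself. The split differed: 51.0% of members were lower against 33.9% of all tested genes, and 16.3% were higher against 36.3%. The median log2 fold change was -0.35 over the members and 0.09 over all tested genes. Scaling and filtering bear on this split. Of all called genes 48.3% were lower, against 32.5% with upper-quartile factors. On FPKM the share was 62.3% or 62.5% with the FPKM filter and 49.9% without it. Upper-quartile factors raise the median of all genes by 0.36, and with them 15 members were higher and 14 lower. Group ranges of the normalized level did not overlap for 34 members (69.4%), against 74.3% of all tested genes.

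Abundance moves with this split. Among tested genes with a mean level of at least 100 CPM, 62.4% were lower and the median log2 fold change was -0.61. Of the 11 members in that band 9 were lower and 0 were higher, at a median of -0.61. From 10 to 100 CPM 51.0% of all tested genes were lower, as were 11 of 25 members, with medians of -0.35 and -0.25. Below 10 CPM the background ran the other way, with 53.8% of genes higher and 11.1% lower at a median of 0.90, while 5 of 13 members were lower and 3 were higher at a median of -0.05. That band reaches down to the low-count filter. It therefore holds genes, PROX1 among them, that could be tested only by being higher after 5-FU. These bands were set after the data had been seen, and the part of abundance in the results below was not tested further.

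**Figure D1:**
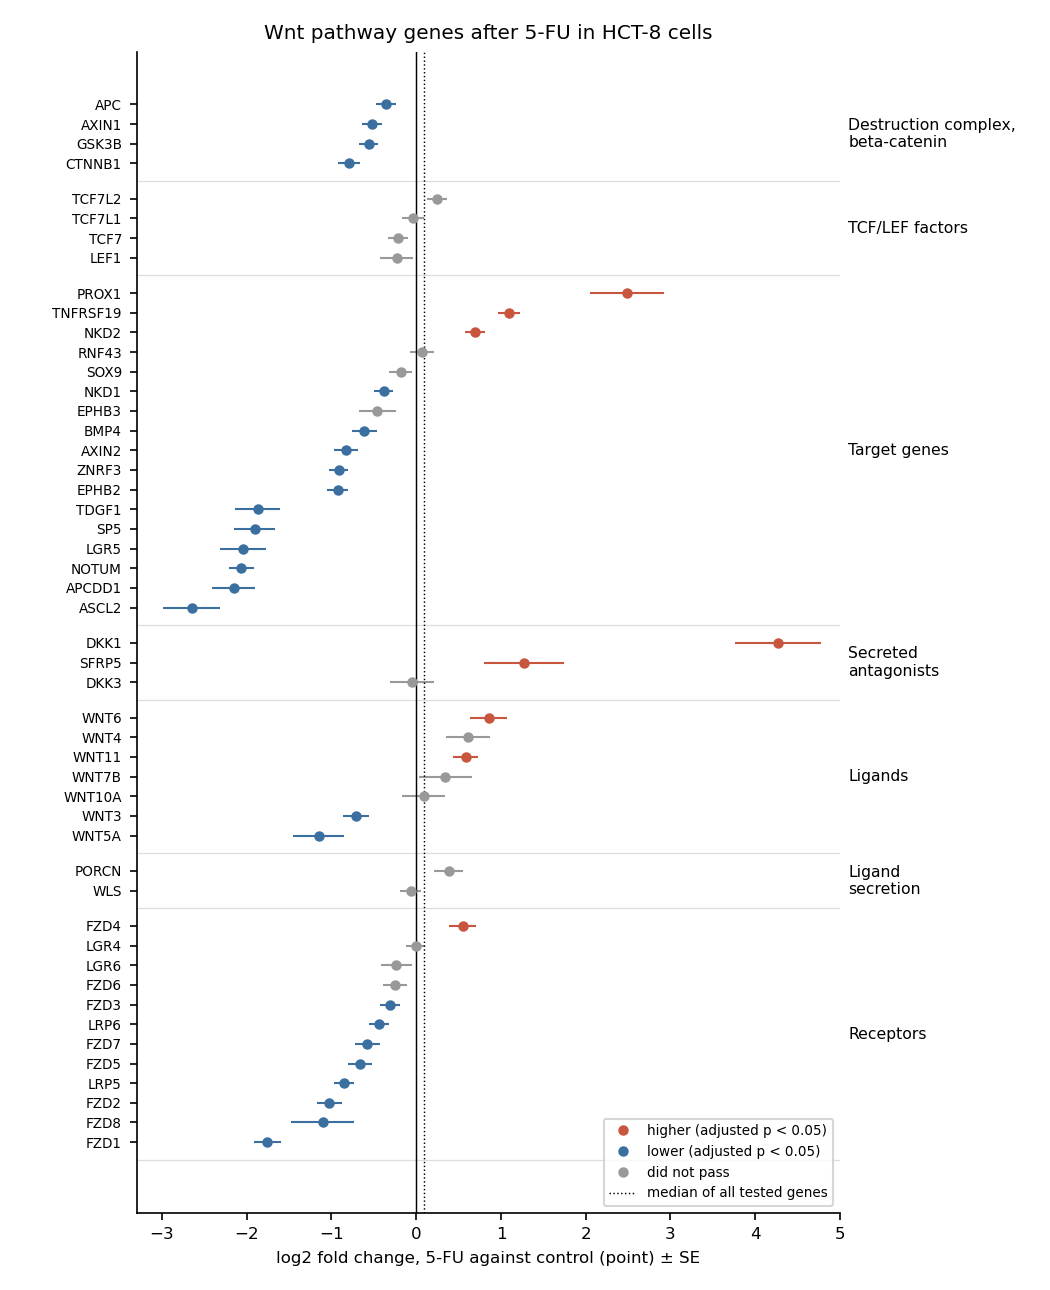
Log2 fold change (5-FU against control) with its SE for the 49 tested Wnt pathway genes, ordered within each role; red points were higher and blue points lower at an edgeR adjusted p under 0.05, and the dotted line marks the median of all tested genes, 0.09. Target genes reach from -2.65 (ASCL2) to 2.49 (PROX1), most receptors lie left of 0, and DKK1 lies furthest right at 4.27.

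Of 17 target genes, all of them tested, 11 fell, 3 rose and 3 were not called. Lower calls thus made up 64.7% of targets and 33.9% of all tested genes, and the median log2 fold change of targets was -0.83. At their own abundance most targets were near the background: 5 of 7 were lower at 100 CPM or more, where 62.4% of all genes were, and 3 of 6 from 10 to 100 CPM, where 51.0% were. Below 10 CPM 3 of 4 were lower, against 11.1% of all genes. These 3, SP5, LGR5 and TDGF1, had control means of 14.8, 9.35 and 6.71 CPM. The band's background also holds far scarcer genes tested only through a rise, so it is not a like comparison. ASCL2, APCDD1, NOTUM, LGR5, SP5 and TDGF1 fell furthest, by 3.65-fold to 6.26-fold, from control means between 6.71 and 188 CPM. These 6 were called lower in every setting tried, with log2 fold changes that reached -1.02 for LGR5 and -1.05 for TDGF1 at the smallest. The more abundant targets AXIN2, BMP4 and NKD1 fell by 1.77-fold or less.

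NOTUM, a secreted enzyme that removes the lipid from Wnt ligands and so inactivates them, had the smallest p of the members. It measured 35.4, 44.0 and 46.4 CPM in control replicates 1 to 3 and 9.68, 9.65 and 10.7 CPM in the 5-FU replicates. The 5-FU libraries lay close together and far below every control library. NOTUM (ENSG00000185269, chromosome 17 at 81952507 to 81961840, minus strand of GRCh38) thus fell 4.18-fold (log2 fold change -2.06, SE 0.15, edgeR adjusted p = 1.13e-06).

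APCDD1, a membrane inhibitor of Wnt signalling, measured 131, 244 and 190.1 CPM in control and 30.4, 38.5 and 58.0 CPM after 5-FU. The groups were well apart, and each spread widely: control replicate 2 was highest in its group and 5-FU replicate 3 in the other. APCDD1 (ENSG00000154856, chromosome 18 at 10454628 to 10489948) fell by 2.15 (SE 0.25) on the log2 scale (edgeR adjusted p = 2.1e-05).

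ASCL2, a transcription factor that specifies intestinal stem cells, gave 28.4, 15.004 and 33.2 CPM in control and 6.06, 2.45 and 3.69 CPM after 5-FU. Its fold change was the largest decrease among the members, 6.26-fold (log2 -2.65, SE 0.34, edgeR adjusted p = 3.51e-05). Control replicate 2 was the low sample of its group and still stood above all 5-FU libraries. ASCL2 (ENSG00000183734) lies on chromosome 11 at 2268495 to 2270952.

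SP5, a zinc finger factor whose promoter window above holds CTTTGAT, went from 17.7, 11.4 and 15.4 CPM to 2.65, 4.59 and 4.64 CPM (log2 fold change -1.90, SE 0.24, edgeR adjusted p = 3.6e-05). It is encoded on chromosome 2 at 170715351 to 170718078 (ENSG00000204335). No 5-FU library came near the control range.

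LGR5, the R-spondin receptor that marks crypt stem cells, was scarce in the control libraries (10.1, 7.64 and 10.3 CPM) and scarcer after 5-FU (2.39, 1.36 and 3.03 CPM). The groups did not overlap, and LGR5 fell by 2.04 (SE 0.27) on the log2 scale (edgeR adjusted p = 4.92e-05). TDGF1, a co-receptor of Nodal signalling, fell by 1.87 (SE 0.26) on the log2 scale, from 6.71 ± 1.96 to 1.84 ± 0.136 CPM (mean ± SD, n = 3 per group). Reads of TDGF1 may be divided with its processed pseudogenes, which makes that value uncertain. SP5, LGR5 and TDGF1 have a mean under 10 CPM over the 6 libraries, where genes in general were more often higher than lower. Some of those genes could be tested only by being higher after 5-FU.

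ZNRF3 and RNF43 encode related ubiquitin ligases that remove Frizzled receptors from the cell surface, and their values differed. ZNRF3 measured 132, 149 and 142 CPM in control and 76.1, 70.3 and 77.5 CPM after 5-FU, without overlap (log2 fold change -0.92, SE 0.11, edgeR adjusted p = 2.6e-05). RNF43 overlapped, at 111, 131 and 111 CPM against 147, 116 and 105 CPM (0.07, SE 0.14, edgeR adjusted p = 0.69). Its estimate was 0.43 with upper-quartile factors (edgeR adjusted p = 0.0271) and under 0 in DESeq2 (-0.082), so it is given no direction. Exons of other genes on its own strand cover 59.5% of the exonic bases of RNF43 and exons on the opposite strand 20.3%, so its count cannot be assigned with confidence. Whether the fold changes of this pair differ was not tested.

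AXIN2, a scaffold of the destruction complex that the pathway itself induces and the most widely used readout of its activity, was one of the most abundant members. Control libraries gave 435, 541 and 565 CPM and 5-FU libraries 296, 264 and 309 CPM. The ranges were apart, with a log2 fold change of -0.83 (SE 0.14, edgeR adjusted p = 0.000336). An overlapping gene on the same strand covers 25.2% of its exonic bases. EPHB2, an ephrin receptor that positions cells along the crypt, fell in like measure (-0.93, SE 0.12), as did the morphogen BMP4 (-0.61, SE 0.15) and, by less, NKD1, an inhibitor that binds Dishevelled (-0.38, SE 0.11). With upper-quartile factors BMP4 (-0.25) and NKD1 (-0.026) were not called.

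EPHB3, the second ephrin receptor of the crypt, did not pass (-0.46, SE 0.22, edgeR adjusted p = 0.0774). Its control libraries gave 65.6, 86.0 and 77.1 CPM and its 5-FU libraries 78.9, 39.0 and 48.3 CPM. Replicate 1 of the 5-FU group sat within the control range, and without it EPHB3 was called lower (-0.79, edgeR adjusted p = 0.00117). With all libraries it was called lower in 6 further alternatives, among them DESeq2 (-0.61, adjusted p = 0.0122) and limma-voom (-0.52, adjusted p = 0.0489). SOX9, a factor of crypt progenitors and Paneth cells, also overlapped, at 278 ± 14.7 CPM in control and 245 ± 36.6 CPM after 5-FU (-0.18, SE 0.14).

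Target genes that rose were TNFRSF19, NKD2 and PROX1. TNFRSF19, a receptor of the tumour necrosis factor family also known as TROY, measured 13.1, 14.0 and 11.9 CPM in control and 27.7, 26.5 and 29.5 CPM after 5-FU. This rise of 2.14-fold was tight within each group (log2 fold change 1.10, SE 0.13, edgeR adjusted p = 2.39e-05). NKD2, the paralog of NKD1, rose by 0.69 (SE 0.12, edgeR adjusted p = 0.000334), from 30.0 ± 2.57 to 48.5 ± 2.94 CPM, whereas NKD1 fell. PROX1, a homeobox factor, had 5, 10 and 9 counts in control and 57, 22 and 48 after 5-FU (2.49, SE 0.44), and rose from 0.373 ± 0.129 to 2.11 ± 0.89 CPM. It passed the low-count filter through its 5-FU libraries alone. A gene so scarce in control could be tested only by being higher after 5-FU.

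**Figure D2:**
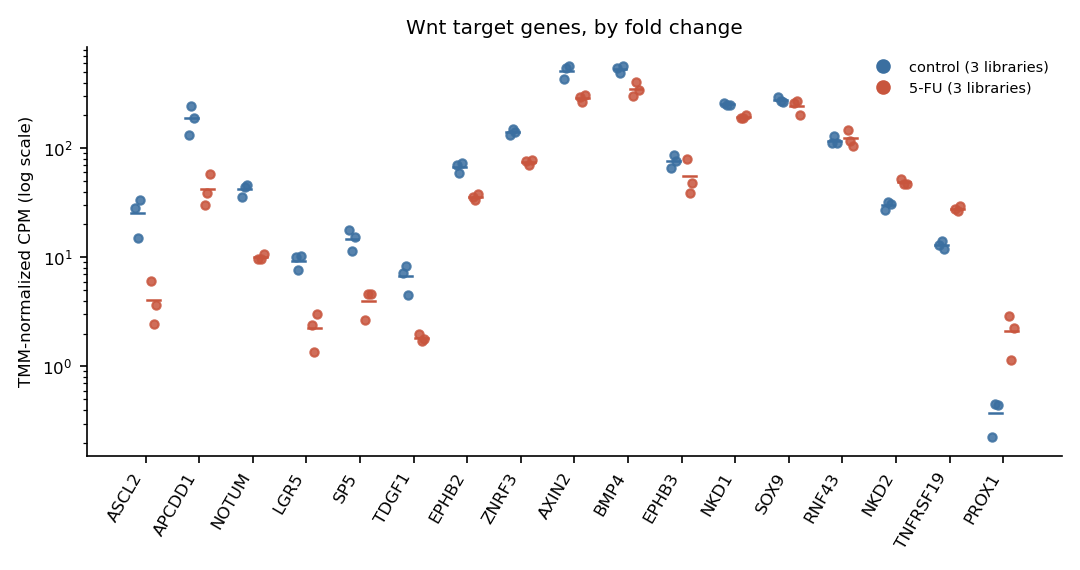
TMM-normalized CPM on a log axis for the 17 Wnt target genes in each library (points) with the group mean (line), ordered by fold change from the largest decrease. In the 6 genes at the left every 5-FU library lies far below every control library, as NOTUM shows at 9.65 to 10.7 against 35.4 to 46.4 CPM, while EPHB3, SOX9 and RNF43 overlap and NKD2, TNFRSF19 and PROX1 lie higher.

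The destruction complex and beta-catenin fell without exception, by less than the leading targets. All 4 genes were lower, with log2 fold changes from -0.79 to -0.35. Many genes of like abundance were lower too. At 100 CPM or more, where CTNNB1 and GSK3B lie, 62.4% of all tested genes were lower, at a median of -0.61. From 10 to 100 CPM, where AXIN1 and APC lie, 51.0% were, at a median of -0.35. Over all levels the share was 33.9%. CTNNB1, which encodes beta-catenin, measured 491, 446 and 487 CPM in control and 256, 278 and 288 CPM after 5-FU. The 3 values of each group lay close together and the groups were far apart (log2 fold change -0.79, SE 0.12, edgeR adjusted p = 0.000168). GSK3B, the kinase that phosphorylates beta-catenin, went from 133, 127 and 121 CPM to 80.0, 87.9 and 90.2 CPM (-0.56, SE 0.11). AXIN1, the constitutive scaffold, went from 103, 90.8 and 92.6 CPM to 72.3, 64.6 and 62.5 CPM (-0.52, SE 0.11).

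APC, the tumour suppressor of the complex, had the smallest change of the 4, from 56.7, 48.0 and 54.3 CPM to 41.9, 40.2 and 42.3 CPM (-0.35, SE 0.11, edgeR adjusted p = 0.0156). The groups did not overlap. Its call was lost without control replicate 1 (edgeR adjusted p = 0.0507) and without 5-FU replicate 2 (edgeR adjusted p = 0.0523), and with upper-quartile scaling its log2 fold change was 0.0066. Under that scaling AXIN1 (edgeR adjusted p = 0.221) and GSK3B (edgeR adjusted p = 0.103) were also not called and CTNNB1 was (-0.43).

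None of the 4 TCF/LEF factors, which bring beta-catenin to DNA, passed the test. TCF7L2, the main factor of the intestinal epithelium, was the most abundant, at 62.3, 56.1 and 55.3 CPM in control and 75.5, 64.8 and 66.1 CPM after 5-FU. Every 5-FU library was above every control library, but the log2 fold change of 0.25 (SE 0.12, edgeR adjusted p = 0.0732) missed the threshold. It was called higher with upper-quartile factors (0.61, edgeR adjusted p = 0.000677), plain library totals (edgeR adjusted p = 0.0151) and a mean count of at least 50 (edgeR adjusted p = 0.00257). TCF7 (-0.22, SE 0.12), LEF1 (-0.23, SE 0.20) and TCF7L1 (-0.04, SE 0.13) overlapped between the groups. With upper-quartile scaling the estimates of these 3 were above 0 (0.15, 0.13 and 0.32), so no direction is given for them. TCF7L1 was called higher under that scaling (edgeR adjusted p = 0.0448). TCF7 was called lower in 6 of the 18 alternatives, among them DESeq2 (adjusted p = 0.0314), the 3 fits on FPKM and the fit without 5-FU replicate 1 (edgeR adjusted p = 0.0437).

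Of 12 receptors 8 were lower, 1 was higher and 3 were not called, with a median log2 fold change of -0.51. The share called, 75.0%, was near the 70.2% of all tested genes. By abundance, 2 of 2 receptors were lower at 100 CPM or more, where 62.4% of all genes were, 5 of 9 from 10 to 100 CPM, where 51.0% were, and 1 of 1 below 10 CPM. FZD1, FZD2 and LRP5 were lower in every setting tried, whereas upper-quartile factors ended the calls of FZD3, FZD5, FZD7, FZD8 and LRP6. Of 8 Frizzled genes 6 fell, FZD4 rose and FZD6 did not pass. FPKM divides counts by gene length and so allows genes to be compared by level. Summed over the 8 Frizzled genes, the deposited FPKM was 66.3, 66.4 and 66.8 in control and 39.4, 41.4 and 44.9 after 5-FU. This scale carries the authors' own library constants, 0.89 to 0.99 times the count total in control and 1.07 to 1.16 times after 5-FU, which enter that difference.

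FZD1 fell furthest among the receptors, from 15.7, 18.1 and 16.9 CPM to 4.79, 4.64 and 5.54 CPM. This 3.38-fold fall had little spread within either group (log2 fold change -1.76, SE 0.16, edgeR adjusted p = 4.31e-06), and FZD1 (ENSG00000157240) lies on chromosome 7 at 91264364 to 91271326. FZD2, a close relative, went from 19.3, 22.0 and 24.4 CPM to 10.1, 11.6 and 10.5 CPM (-1.03, SE 0.15). FZD7, the third gene of that subfamily, went from 69.7, 83.9 and 72.2 CPM to 56.0, 40.0 and 55.5 CPM (-0.58, SE 0.15). FZD1, FZD2 and FZD7 thus fell together, each without overlap between the groups. FZD5 fell as well, from 70.7, 52.7 and 59.5 CPM to 42.5, 40.0 and 33.2 CPM (-0.66, SE 0.14).

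Calls of the remaining Frizzled genes were less firm. FZD8 was lower at about 1 CPM (-1.10, SE 0.37), and its call was lost without control replicate 1 (edgeR adjusted p = 0.0627), 5-FU replicate 2 (0.0504) or 5-FU replicate 3 (0.0729). The 5-FU libraries of FZD8 alone would not have passed the low-count filter. FZD3 was lower (-0.31, SE 0.12, edgeR adjusted p = 0.0364), but not without control replicate 1 (0.0768), control replicate 3 (0.0826), 5-FU replicate 2 (0.0786) or 5-FU replicate 3 (0.0819). With the replicate number as a block FZD3 had an edgeR adjusted p of 0.0757. FZD4, a receptor that also binds Norrin, was higher, from 12.1 ± 1.58 to 17.7 ± 2.55 CPM (0.55, SE 0.16, edgeR adjusted p = 0.0104), and lost its call without control replicate 1 (0.0675), in DESeq2 (adjusted p = 0.0646) and in each of the 3 fits on FPKM. Exons of PRSS23 on the opposite strand cover 18.9% of FZD4, and no strand setting is stated for the counting.

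FZD6 was the Frizzled gene with the second highest control level, at 18.9 FPKM beside 20.2 for FZD7. After 5-FU it was the highest, at 14.5 ± 3.14 FPKM against 12.3 ± 2.07 for FZD7, values that overlap within their spread. Its own change did not pass (-0.25, SE 0.14, edgeR adjusted p = 0.14).

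The co-receptors fell with the Frizzled genes. LRP5 measured 189, 198 and 212 CPM in control and 115, 113 and 104 CPM after 5-FU, a clear separation (-0.85, SE 0.11, edgeR adjusted p = 5.35e-05). LRP6 changed less, from 153, 178 and 156 CPM to 119.7, 115 and 125 CPM (-0.44, SE 0.11, edgeR adjusted p = 0.0051), and with upper-quartile scaling it was not called (-0.08, edgeR adjusted p = 0.546). The R-spondin receptors LGR4 and LGR6 did not pass. LGR4 gave 77.5 ± 7.96 CPM in control and 77.2 ± 1.999 CPM after 5-FU (-0.01, SE 0.12), beside the fall of its relative LGR5, and under upper-quartile scaling LGR4 was called higher (0.35, edgeR adjusted p = 0.0221).

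Ligands went both ways. Of 7 Wnt genes WNT6 and WNT11 rose, WNT3 and WNT5A fell and 3 did not pass, at a median of 0.34. Higher and lower calls each made up 28.6%, against 36.3% and 33.9% of all tested genes. These counts are therefore not a result about ligands in themselves. WNT6 made up most of the ligand level per length: it held 64.8%, 49.8% and 53.2% of the summed ligand FPKM in control and 59.2%, 74.9% and 67.3% after 5-FU. Without it the summed ligand FPKM was 12.4 to 14.0 in control and 12.7 to 13.9 after 5-FU, ranges that coincide. The library constants of the FPKM scale, larger after 5-FU, enter this comparison too. The sum also joins the rise of WNT11 with the falls of WNT3 and WNT5A.

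WNT6 measured 37.1, 23.1 and 25.8 CPM in control and 37.0, 67.8 and 50.7 CPM after 5-FU. Replicate 1 of the 5-FU group lay just below replicate 1 of the control group, so the ranges overlapped by those 2 libraries (log2 fold change 0.85, SE 0.22, edgeR adjusted p = 0.00477). In 2 of the fits on FPKM WNT6 was not called (limma adjusted p = 0.0523 and 0.121). WNT6 (ENSG00000115596, chromosome 2 at 218859821 to 218874233) ends 6129 bases before its neighbour WNT10A on the same strand. WNT10A did not move with it: it gave 3.82 ± 0.591 and 4.06 ± 1.202 CPM (0.09, SE 0.26).

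WNT11, a ligand best known for signalling without beta-catenin, rose from 11.8, 15.2 and 13.8 CPM to 21.1, 19.1 and 20.8 CPM without overlap (0.58, SE 0.14, edgeR adjusted p = 0.00364). WNT5A, another ligand of that kind, fell from 7.09, 11.6 and 16.2 CPM to 6.98, 4.80 and 3.88 CPM (-1.15, SE 0.30, edgeR adjusted p = 0.00464), and was not called on unfiltered FPKM (limma adjusted p = 0.0596). Control values of WNT5A spread more than 2-fold and the lowest of them almost met the highest 5-FU value. WNT3, the ligand that Paneth cells supply to crypt stem cells, fell from 13.1, 14.7 and 13.2 CPM to 7.95, 8.92 and 8.19 CPM (-0.71, SE 0.15, edgeR adjusted p = 0.00134), a call lost with upper-quartile factors (-0.36, edgeR adjusted p = 0.0625).

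WNT4 (0.61, SE 0.26, edgeR adjusted p = 0.0526) and WNT7B (0.34, SE 0.31) did not pass. The ranges of WNT4 were apart at 1.93 to 3.07 and 3.12 to 4.38 CPM, and without control replicate 2 it was called higher (0.80, edgeR adjusted p = 0.0224). Upper-quartile factors also gave WNT4 (edgeR adjusted p = 0.00859) and PORCN (edgeR adjusted p = 0.0022) as higher, and so WLS (0.29, edgeR adjusted p = 0.0451), whose estimate is under 0 in the reported fit (-0.064). Of the proteins that release Wnt ligands, neither the carrier WLS (68.3, 72.2 and 66.9 CPM in control, 60.6, 61.9 and 75.9 CPM after 5-FU) nor the acyltransferase PORCN (9.98 ± 0.434 and 13.0 ± 2.43 CPM) passed the test. Without 5-FU replicate 1 PORCN was called higher (0.54, edgeR adjusted p = 0.0105).

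**Figure D3:**
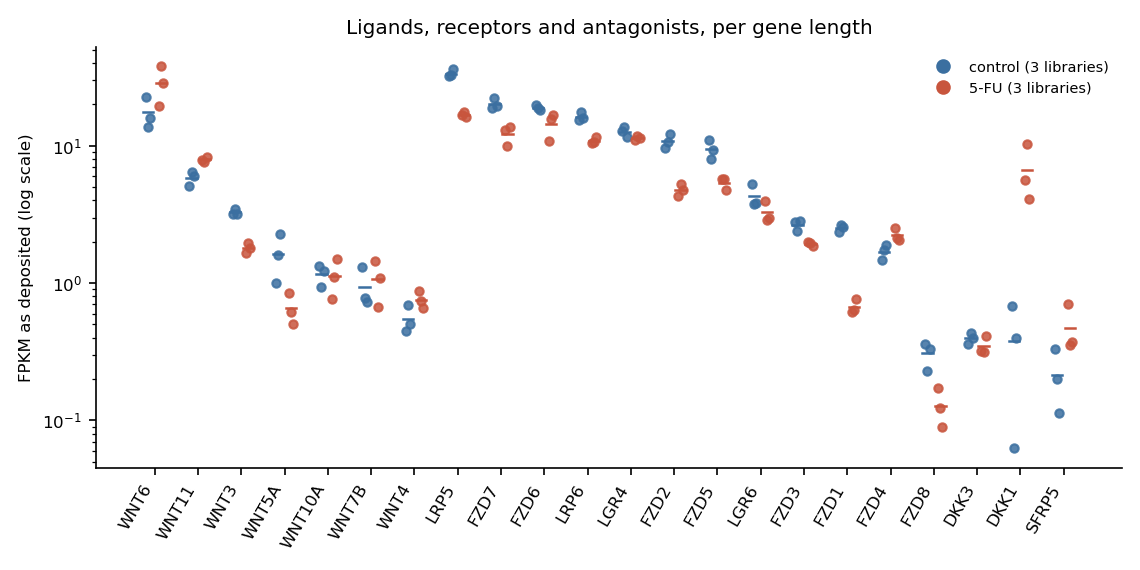
Deposited FPKM on a log axis for the tested ligands, receptors and secreted antagonists in each library (points) with the group mean (line), each role ordered by its control level. WNT6 leads the ligands and LRP5 the receptors, FZD1 and FZD2 show the widest gaps downward among the Frizzled genes above 1 FPKM in control, and DKK1 rises from a mean of 0.381 to 6.67 FPKM.

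Secreted antagonists were close to silent in control cells, and DKK1 left that range after 5-FU. DKK1 encodes Dickkopf-1, which blocks LRP5 and LRP6 and is itself a known target of beta-catenin. It had 32, 3 and 17 counts in control and 268, 456 and 201 after 5-FU, or 1.44, 0.136 and 0.839 against 13.7, 23.8 and 9.52 CPM. Its control libraries alone would not have passed the low-count filter. The groups were far apart, and the values within each differed more than for most members, with 5-FU replicate 2 highest and control replicate 2 lowest. The log2 fold change of DKK1 (ENSG00000107984, chromosome 10 at 52314296 to 52318042) reached 4.27 (SE 0.51, edgeR adjusted p = 2.17e-05), and it ranged from 2.42 to 4.99 over the settings tried. Exons of an antisense gene, PRKG1-AS1, cover 9.61% of its exonic bases.

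Other antagonists stayed near the detection limit. SFRP5, a decoy that binds Wnt ligands, was called higher (1.27, SE 0.47, edgeR adjusted p = 0.0289) at 13, 8 and 4 counts in control and 28, 13 and 15 after 5-FU. That call was lost without control replicate 2 (edgeR adjusted p = 0.08), control replicate 3 (0.123) or 5-FU replicate 1 (0.145). The control libraries of SFRP5 alone would not have passed the low-count filter. DKK3 was level at 1.95 ± 0.211 and 1.88 ± 0.267 CPM (-0.05, SE 0.26). DKK4, WIF1 and SFRP1 had too few counts to test. DKK4 gave 1, 2 and 0 counts in control and 6, 2 and 3 after 5-FU, WIF1 gave 0 in each control library and 9, 0 and 4 after 5-FU, and SFRP1 gave 3 counts in 1 5-FU library and 0 in the other 5 libraries.

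Set side by side, 11 of 17 target genes fell and 3 rose, whereas 10 of 22 tested ligands, receptors and antagonists fell and 5 rose. Lower calls made up 64.7% and 45.5% of these groups, against 33.9% of all tested genes. Higher calls made up 17.6% and 22.7%, against 36.3%. These counts include genes that the low-count filter kept only with the group where they were higher. PROX1, DKK1 and SFRP5 among those that rose would not have passed on control libraries alone. FZD8 among those that fell would not have passed on 5-FU libraries alone. Their calls are weak support for either count. The medians were -0.83 and -0.24, a gap of 0.59 with target genes the lower. No test was made of this gap, since the genes were grouped with earlier results known. The groups also differ in abundance. A mean of at least 100 CPM was reached by 7 targets and 2 receptors, and by no ligand or antagonist. At that level the median of all tested genes was -0.61. The part of abundance in the gap was not tested. Another scaling shifts all genes alike and so cannot move the gap, but with upper-quartile factors the second median was above 0 (0.12). The difference, targets minus the others, was -0.47 without control replicate 3, -0.73 without control replicate 1 and -0.78 in DESeq2. It also depends on how genes with 2 roles are placed. With DKK1 and DKK4 counted as targets and NOTUM and APCDD1 as antagonists, the medians were -0.54 and -0.31 and the gap 0.23. LGR5 (-2.04), a receptor as well as a target, stayed with the targets in that exchange. Its placement among the receptors was not tried, so 0.23 need not be the smallest gap. Within the second group receptors (-0.51) and ligands (0.34) also differed from each other in median.

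**Figure D4:**
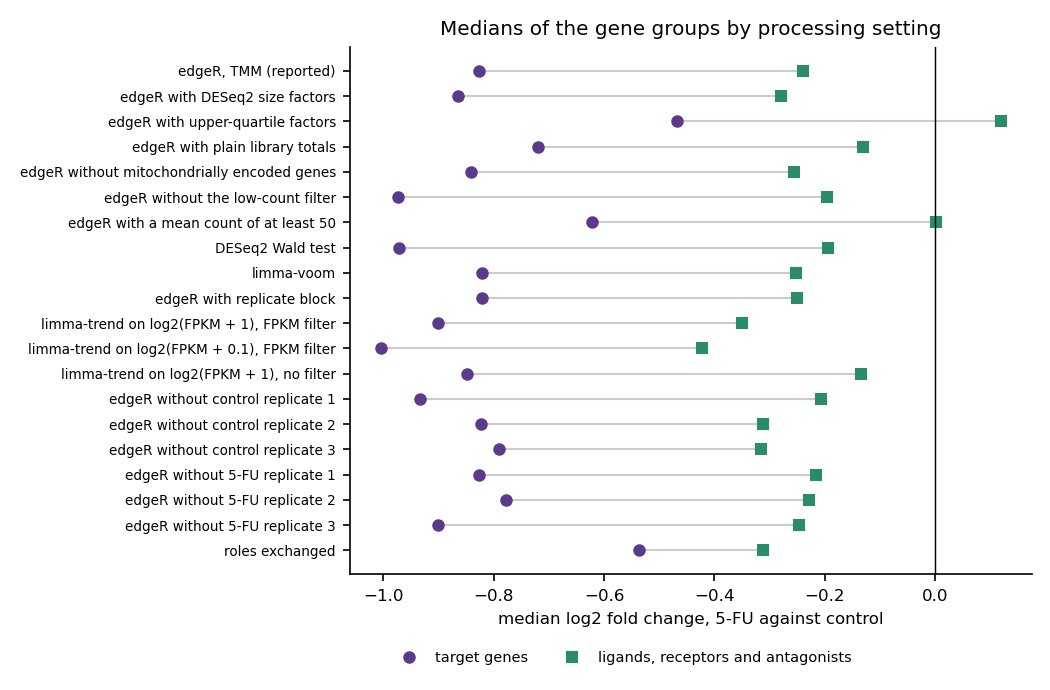
Median log2 fold change (5-FU against control) of the target genes (circles) and of the ligands, receptors and antagonists (squares) under each processing setting, joined by a grey line. The circles stay between -1.003 and -0.47 and to the left of the squares in every setting drawn. Of the settings drawn the line is shortest, 0.23, where DKK1, DKK4, NOTUM and APCDD1 exchange groups. LGR5, also a receptor, was not exchanged.

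Other genes of the pathway, from a separate list of 74, numbered 55 tested, of which 29 were lower and 10 were higher, at a median of -0.44. The share called, 70.9%, was that of all tested genes (70.2%), and 52.7% were lower and 18.2% higher, against 33.9% and 36.3% of all tested genes. The counts of its sublists below are read against the same shares. Of 21 cytoplasmic genes 11 fell and 3 rose. The phosphatase subunit PPP2R1A (-1.24, SE 0.13) and CSNK1A1, the casein kinase that primes beta-catenin for GSK3 (-1.08, SE 0.13), were lower, and CSNK1E (0.72, SE 0.12) and the ubiquitin ligase subunit BTRC (0.36, SE 0.13) were higher. Of 18 tested nuclear genes 11 fell and 2 rose, with the deacetylase HDAC1 (-1.10, SE 0.12) and the Mediator kinase CDK8 (-1.11, SE 0.12) lower and the corepressors TLE2 (0.61, SE 0.15) and TLE4 (1.38, SE 0.37) higher.

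Among further receptors 4 of 7 tested fell and 1 rose. KREMEN1, a receptor for Dickkopf proteins, fell (-0.87, SE 0.12), as did RYK (-0.84, SE 0.13), and the pseudokinase PTK7 rose (0.50, SE 0.14). Of 17 further ligands and agonists 5 were tested. WNT2B rose from 35, 62 and 41 counts to 329, 195 and 258 (2.61, SE 0.26, edgeR adjusted p = 7.21e-06), a larger rise than that of any ligand among the 52, and WNT9A rose too (1.03, SE 0.23), while WNT10B (-1.14, SE 0.22) and WNT5B (-0.50, SE 0.16) fell. The R-spondins, which act through the LGR receptors, had at most 9 counts in any library.

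Of 8 extracellular inhibitors outside the 52, 4 were tested, 2 rose and 1 fell. FRZB, a secreted Frizzled decoy, had 3, 1 and 0 counts in control and 98, 42 and 43 after 5-FU (edgeR adjusted p = 2.16e-05). SFRP4, of the same family, had 7, 12 and 3 counts in control and 66, 43 and 58 after 5-FU (3.02, SE 0.40, edgeR adjusted p = 4.52e-05). Both stayed at or under 5 CPM in every library. FRZB passed the low-count filter through its 5-FU libraries alone and SFRP4 only with them. Genes so scarce in control could be tested only by being higher after 5-FU. TRABD2A, a metalloprotease that cleaves Wnt ligands, fell (-0.75, SE 0.15).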

How the data were processed

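Gene counts came from HCT-8 RNA libraries, 3 control and 3 treated with 5-FU, made with the NEBNext Ultra kit per the labels' protocols. The submitters' processing notes name build GRCh38 and the tools featureCounts 1.5.0-p3, HISAT2 2.0.5 and DESeq2 1.16.1, without roles, and no strand setting was found. Counts, as deposited by the authors, are whole numbers per gene. The deposited FPKM table holds, tested on its values, the count divided by gene length and by 1 constant per library set by the authors, 0.892 to 0.986 times the count total in control and 1.07 to 1.16 times in 5-FU libraries. Positions of all 52 members equal those of GENCODE release 29, from which shared exonic bases were taken.

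Groups follow the treatment label. Counts of all genes were fitted with edgeR 4.0.16 in R 4.3.3 (filterByExpr with minimum count 10 and minimum total 15, TMM factors, group alone, quasi-likelihood test, Benjamini-Hochberg adjustment over 19771 genes). Each SE was obtained from the unshrunk log2 fold change and F. Alternatives were other scalings, filters and tests (DESeq2 1.42.0, limma 3.58.1 with voom, limma-trend on log2 FPKM with a pseudocount of 1 or 0.1, filtered at FPKM of at least 1 in 3 samples or unfiltered), a replicate block, leaving out each library, and exchanged roles. Fold changes on the log2(FPKM + pseudocount) scale understate the change of low genes. Scripts were tested on simulated counts.

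The members, roles and lists were chosen with earlier results of these data known. Values in every library are given for called members with groups apart and a mean of at least 1 CPM, up to 6 of smallest p among targets and receptors and 4 in other roles, or for the most abundant member where none qualified. Of other pathway genes, up to 2 of smallest p per direction and list are named. AXIN2, LGR5, RNF43, EPHB3, WNT6, PROX1 and SFRP5 were added after their values were seen. Library totals of 18459939 to 23495607 limit precision for genes with few counts.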

Additional observations from a re-analysis of the deposited data

How the results depend on the processing

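Of 33 called members 18 kept their call and direction under every one of the 18 alternative fits that could test them, and 15 lost the call in 1 or more. ASCL2, APCDD1, NOTUM, LGR5, SP5, TDGF1, DKK1, FZD1, LRP5 and CTNNB1 are among the 18. Depth limits PROX1, SFRP5, FZD8, DKK3 and the 3 untested antagonists, all under 3 CPM. Upper-quartile factors moved the median of all genes by 0.36 and the share of called genes that were lower from 48.3% to 32.5%. With them 15 members were higher and 14 lower, of which ligands, receptors and antagonists gave 4 lower, and the medians were -0.47 for target genes and 0.12 for ligands, receptors and antagonists. Their log2 fold changes above 0 were 0.0066 for APC, 0.15 for TCF7, 0.32 for TCF7L1, 0.13 for LEF1, 0.17 for SOX9, 0.30 for DKK3, 0.29 for WLS, 0.050 for FZD3, 0.11 for FZD6, 0.35 for LGR4 and 0.13 for LGR6. At a mean count of at least 50, 6 ligands, receptors and antagonists were lower, the medians were -0.62 for targets and 0.0011 for the others, and TCF7 (0.038), TCF7L1 (0.21), LEF1 (0.025), SOX9 (0.067), WLS (0.18), FZD6 (0.0011), LGR4 (0.24) and LGR6 (0.021) were above 0. Plain library totals gave a median of -0.13 for ligands, receptors and antagonists, with TCF7L1 at 0.068, DKK3 at 0.053, WLS at 0.042 and LGR4 at 0.098; they shift all genes by 0.11. Without the low-count filter and in DESeq2 the target median was -0.97 in each, RNF43 was at -0.081 and -0.082 and WNT10A at -0.057 and -0.052.

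On the FPKM table the members called higher numbered 5 with a pseudocount of 1, 4 with 0.1 and 5 unfiltered, and those among ligands, receptors and antagonists 3, 2 and 2; the median of that group was -0.35, -0.42 and -0.14, and that of targets -1.003 with 0.1. There RNF43 was at -0.083, -0.088 and -0.083 and WNT10A at -0.038, -0.080 and -0.038. With roles exchanged the medians were -0.54 and -0.31. Leaving out single libraries gave medians of -0.32 to -0.21 for ligands, receptors and antagonists. RNF43 was then at -0.0098 without control replicate 1, -0.010 without control replicate 3 and -0.070 without 5-FU replicate 1, WNT10A at -0.067 without control replicate 2 and -0.17 without 5-FU replicate 3, LGR4 at 0.034 without control replicate 2 and 0.0023 without 5-FU replicate 1, DKK3 at 0.0013 and 0.013 without 5-FU replicates 1 and 2, and WLS at 0.012 without 5-FU replicate 1. The cause of these changes was not tested, beyond the shift that each scaling applies to all genes.

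Same-numbered libraries did not deviate together (correlations of -0.07, -0.20 and 0.06 across genes), and those of different number gave -0.12 to 0.17. No pairing was seen, but so few libraries cannot show that the samples are unpaired. With the replicate number as a block 24 members were lower and 8 higher, and FZD3 was the member that lost its call.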
